A study of Mus musculus with 12 samples.

Results

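The 10 genes described here encode transcription factors and inhibitors that are switched on by signaling from receptor tyrosine kinases through the kinase ERK. They are the factors Etv1, Etv4 and Etv5, the Sprouty genes Spry1, Spry2 and Spry4, the Sprouty-related genes Spred1 and Spred2, and the phosphatase genes Dusp4 and Dusp6. They were taken by mouse gene symbol from a count table of 55471 genes, and all 10 were among the 19578 genes that passed the filter on low counts. The table came from cultures in which *Neuid* (Gm10419), a long non-coding RNA of neurons, was knocked down. Primary hippocampal cultures of wild-type CD1 mouse embryos from litters of mixed sex received antisense gapmers in lipid nanoparticles on day in vitro (DIV) 7, and RNA was isolated 3 days later, on DIV 10. A gapmer is a short antisense oligonucleotide that directs RNase H to cut its target RNA. The 6 *Neuid* KD libraries received the gapmer against *Neuid*, and the 6 control libraries received a gapmer without a known target. One gapmer per group was used, and the labels do not say whether the libraries of a group came from separate cultures, so p-values measure the spread between these libraries.

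When a growth factor binds its receptor tyrosine kinase, adaptor proteins activate Ras, and the kinases Raf, MEK and ERK then act in turn. ERK signaling raises the transcription of Etv4 and Etv5, which carry part of the response to fibroblast growth factors, and of inhibitors that act back on the pathway. Sprouty and Spred proteins act on the steps between the receptor and Raf, while Dusp4 and Dusp6 remove the activating phosphates from ERK and related kinases. In the brain this pathway takes part in the formation of astrocytes and oligodendrocytes and in the activity-dependent transcription of neurons.

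RefSeq promoters of assembly GRCm38.p6, each with 250 bases before and 50 bases after a transcription start, were matched by symbol to 7 of the 10 genes, with 9 starts in all. The others were Etv4, Spry4 and Dusp4. The windows were searched on both strands for GGAAGT and CCGGAAG, letters that contain the core bound by Etv and other ETS factors and that overlap each other in part, for TGACGTCA (cAMP response element), TGANTCA (AP-1) and the CArG box. GGAAGT was present in 3 of the 9 windows and in 23.8% of the 32851 promoters of the same length. CCGGAAG was in 0 of the 9 windows and in 8.86% of all promoters, and TGACGTCA, TGANTCA and the CArG box were in 0 of the 9, against 1.79%, 7.81% and 1.63% of all promoters. The windows with GGAAGT are shown because they belong to a gene that was lower, a gene that was higher and a gene that was not called after *Neuid* KD, with the letters GGAAGT, or ACTTCC where the match is on the opposite strand, in capitals. Etv1 and Etv5 had 2 windows each, and the other window of each gene was without GGAAGT. The Etv1 window shown is chr12:38779832-38780131 on the plus strand, and its start is also that of a transcript in the GENCODE annotation. The Etv5 window shown is chr16:22438319-22438618 on the minus strand. Its start is inside an annotated intron, 1202 bases from the nearest annotated start. The Etv5 window without GGAAGT, chr16:22439521-22439820, has the start of an annotated transcript. The Spred2 window is chr11:19924192-19924491 on the plus strand, again with the start of an annotated transcript.
Etv1: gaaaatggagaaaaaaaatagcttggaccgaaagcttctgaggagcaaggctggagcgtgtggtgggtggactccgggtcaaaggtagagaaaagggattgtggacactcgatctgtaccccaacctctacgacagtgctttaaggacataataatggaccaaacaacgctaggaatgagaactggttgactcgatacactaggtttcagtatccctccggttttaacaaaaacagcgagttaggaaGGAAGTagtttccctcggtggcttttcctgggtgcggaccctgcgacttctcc
Etv5: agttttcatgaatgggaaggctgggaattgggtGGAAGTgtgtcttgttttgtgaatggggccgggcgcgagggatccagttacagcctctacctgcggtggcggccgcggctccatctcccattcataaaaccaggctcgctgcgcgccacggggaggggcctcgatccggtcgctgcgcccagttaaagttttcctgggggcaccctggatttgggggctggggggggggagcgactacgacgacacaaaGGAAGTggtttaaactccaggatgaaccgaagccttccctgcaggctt
Spred2: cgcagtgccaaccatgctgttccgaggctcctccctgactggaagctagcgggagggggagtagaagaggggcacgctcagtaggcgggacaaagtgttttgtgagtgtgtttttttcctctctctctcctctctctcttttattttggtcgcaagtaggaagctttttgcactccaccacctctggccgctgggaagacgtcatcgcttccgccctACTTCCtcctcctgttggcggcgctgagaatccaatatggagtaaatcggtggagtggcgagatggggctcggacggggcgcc
The match began 3 bases before the start in Etv1 and 33 bases before it in Spred2, and the 2 matches of Etv5 began 217 bases before and 2 bases after the start. A match is a description of letters, not of a bound site.

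The counted reads ranged from 18002585 to 30914714 in the control libraries and from 11152556 to 30573480 in the *Neuid* KD libraries. *Neuid* itself was at 25.97 to 31.01 CPM (counts scaled to the size of each library, with TMM factors) in the control libraries and at 6.32 to 9.55 CPM in the *Neuid* KD libraries, so that 28.4% of the control mean was left (log2 fold change -1.81, standard error 0.0845). The libraries also differed in background: reads on 2012 chemosensory receptor genes summed to between 26.7 and 667 CPM in control and between 27.1 and 616 CPM in *Neuid* KD. At least 100 CPM of such reads was found in 7 libraries (4 control, 3 *Neuid* KD) and less in the other 5 (2 control, 3 *Neuid* KD), and values within each of these sets are given below. Each of the 10 genes was covered by at least 185 and at most 3223 reads in every library, and the variation between libraries of a group beyond counting noise was between 5.53% and 7.86% (biological coefficient of variation).

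Etv4 rose the most of the 10 genes, Etv5, Spry2, Spred1 and Dusp6 rose by less, and Etv1 fell. The 5 genes that rose and the 1 that fell passed the test across all genes (edgeR's quasi-likelihood test, Benjamini-Hochberg adjusted p under 0.05), and Spry1, Spry4, Spred2 and Dusp4 were not called. Over all tested genes, 6.31% were called higher and 2.42% were called lower. These shares include genes with far fewer reads than the 10. With a minimum mean of 1 CPM, 1495 of 15270 genes were called higher and 781 lower. Past the study's threshold of 0.5 on the log2 scale, only Etv4 was called higher and 0 of the 10 genes were called lower. Of all tested genes, 2.44% and 0.792% were called past it. The study itself counts Etv5 among its upregulated genes. Here the log2 fold change of Etv5 was 0.39, and between 0.319 and 0.424 over the alternative fits described below. None of these fits repeated the study's own, which corrected for unwanted variation within DESeq2. The study also reports less of a repressive histone mark at Etv5, which was not examined here. In 4 genes (Etv4, Etv5, Spry2 and Dusp6) the *Neuid* KD libraries were all above the control libraries, and in 1 (Etv1) they were all below, while 4.13% and 1.57% of all tested genes were separated in these directions. The median log2 fold change of the 10 genes was 0.22, and that of all tested genes was -0.03.

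**Figure D1:**
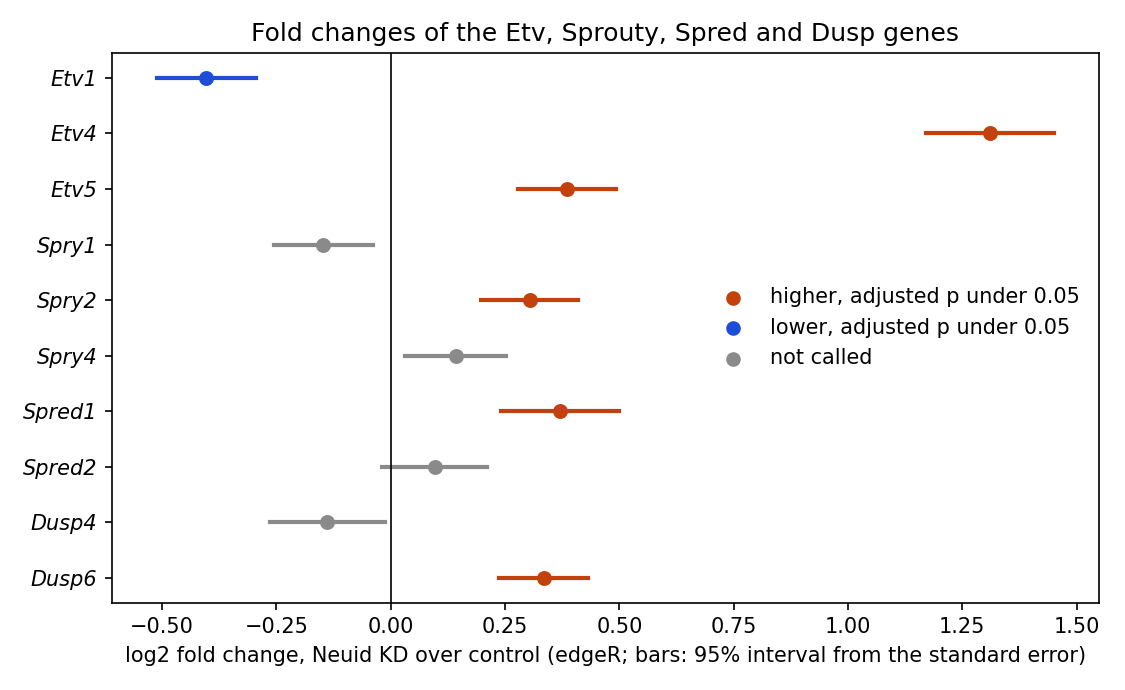
Log2 fold change of each of the 10 genes after *Neuid* KD (points) with the 95% interval from the standard error (bars), coloured by whether the gene was called higher, called lower or not called. Etv4 stands at 1.31, the other genes that rose stand between 0.30 and 0.39, and Etv1 stands at -0.40.

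The 3 Etv genes, which encode closely related ETS transcription factors, moved in different directions. In GENCODE on GRCm38, Etv1 (ENSMUSG00000004151) lies on chr12:38779380-38870484, plus strand. Etv4 (ENSMUSG00000017724) lies on chr11:101769742-101785371, minus strand, and Etv5 (ENSMUSG00000013089) on chr16:22381309-22439719, minus strand. Etv4 was at 8.36, 9.16 and 9.55 CPM in control (lowest, median and highest of 6 libraries) and at 18.8, 22.7 and 26.0 CPM in *Neuid* KD. The lowest *Neuid* KD library was thus well above the highest control library, and the group means differed 2.49-fold (log2 fold change 1.31, standard error 0.0721, edgeR adjusted p = 8.1e-10). Etv5, a factor also needed for the maintenance of spermatogonial stem cells, was at 32.0, 37.6 and 39.1 CPM in control and at 44.8, 48.5 and 50.8 CPM in *Neuid* KD. The groups did not overlap, and the rise was smaller than that of Etv4 (log2 fold change 0.39, standard error 0.0546, edgeR adjusted p = 1.1e-04). Etv1, which also marks neurons of the deep cortical layers, was at 36.0, 38.95 and 42.7 CPM in control and at 25.3, 30.03 and 31.4 CPM in *Neuid* KD. Every *Neuid* KD library was below every control library (log2 fold change -0.40, standard error 0.0554, edgeR adjusted p = 7.7e-05), and 75.3% of the control mean was left. The lowest value of Etv1, 25.3 CPM, came from *Neuid* KD replicate 1, the library with the fewest reads and a background of 616 CPM, and the other 5 were between 29.3 and 31.4 CPM.

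**Figure D2:**
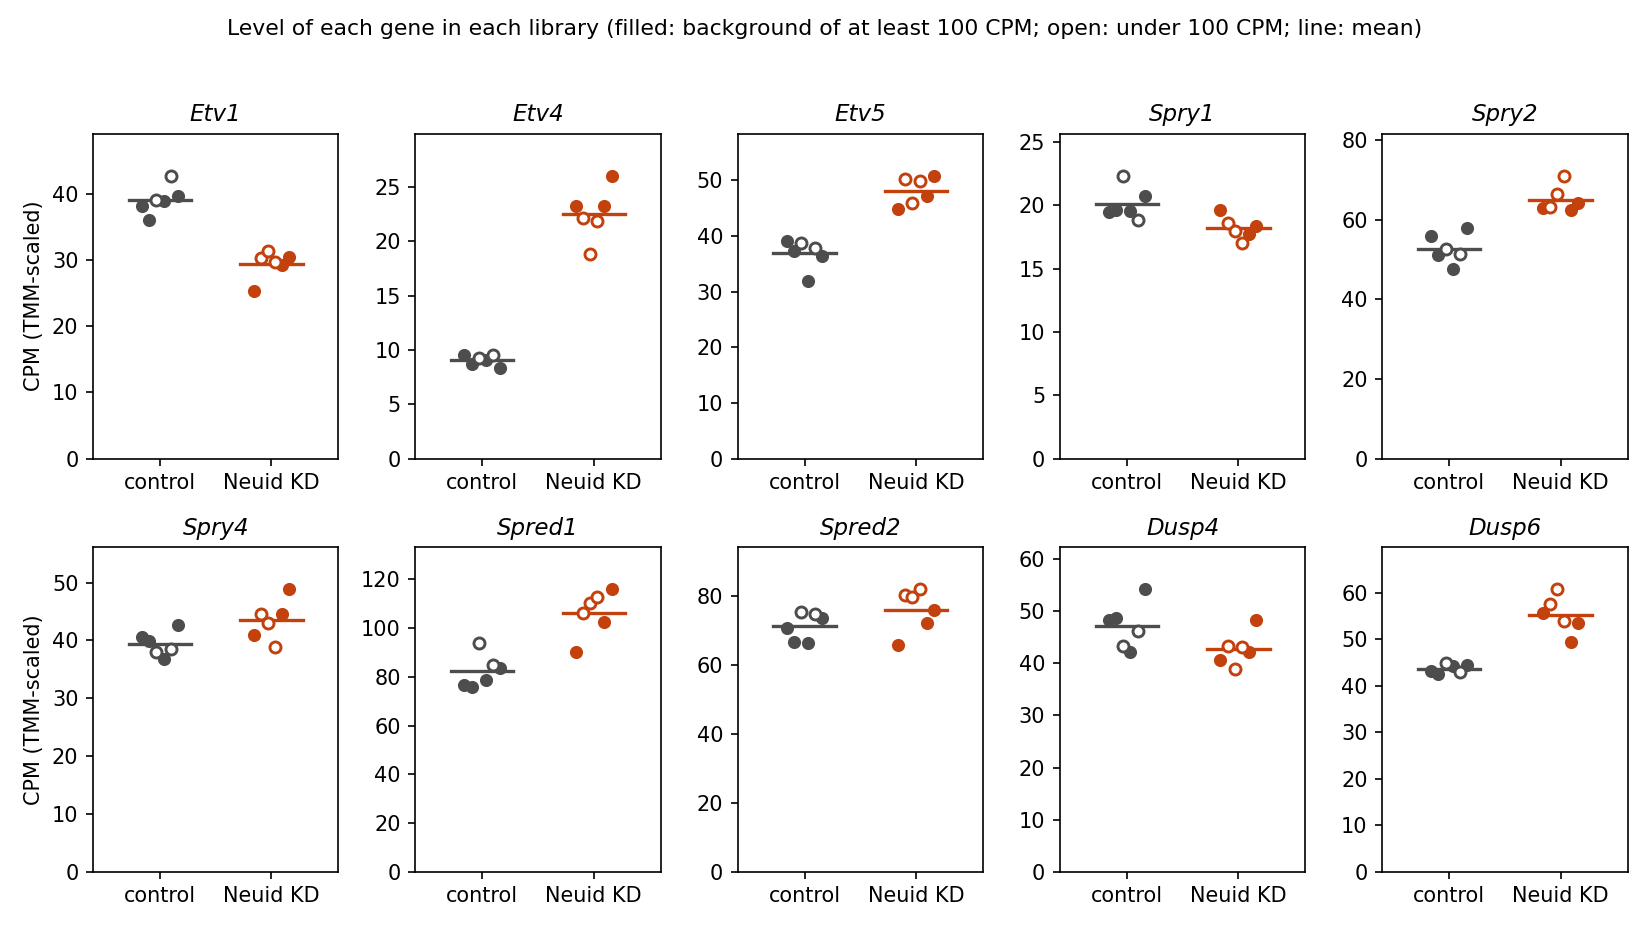
CPM of each of the 10 genes in the 6 control (grey) and 6 *Neuid* KD (orange) libraries, with the group mean as a line, and with filled points for libraries with a background of at least 100 CPM and open points for the others. The groups are apart in Etv1, Etv4, Etv5, Spry2 and Dusp6 and overlap in the other 5 panels.

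The balance between the 3 factors was compared as a ratio within each library, which hardly depends on the scaling of the library. The Etv1 to Etv4 ratio (log2 of CPM + 0.5) was 2.05 ± 0.0864 in control and 0.38 ± 0.211 in *Neuid* KD (SD, n = 6 per group), a difference of -1.67 (exact permutation test, two-sided, p = 0.002165, which is the lowest value possible with 924 arrangements of the libraries). For Etv1 against Etv5 the difference was -0.79, and for Etv4 against Etv5 it was 0.88, both with the same exact p of 0.002165. In these 3 ratios the libraries of the groups did not overlap. Per kilobase of exon (RPKM), Etv4 was between 18.5% and 21.4% of the summed level of the 3 genes in control libraries and between 30.9% and 36.9% in *Neuid* KD. Etv1 went from between 18.5% and 21.5% to between 9.39% and 12.1%, and Etv5, the most abundant of the 3 in every library, went from between 57.2% and 62.3% to between 53.7% and 57.1%. These shares depend on the lengths chosen, and Etv1 has many transcripts. With the longest transcript of each gene, Etv1 was between 29.5% and 33.3% in control and between 15.5% and 19.8% in *Neuid* KD, and Etv4 between 18.7% and 21.3% and between 32.5% and 39.1%. Etv5 was then still the most abundant in every library, at between 45.4% and 50.8% and between 45.2% and 47.9%, which overlapped. By summed exons, the summed level was between 13.6 and 15.5 RPKM in control and between 19.6 and 23.0 RPKM in *Neuid* KD.

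Of the Sprouty genes, whose proteins inhibit signaling between the receptor and Raf, Spry2 rose. Spry2 (ENSMUSG00000022114) lies on chr14:105891947-105896819, minus strand. It was at 47.6, 51.9 and 57.9 CPM in control and at 62.3, 63.8 and 71.0 CPM in *Neuid* KD, without overlap between the groups (log2 fold change 0.30, standard error 0.0536, edgeR adjusted p = 9.8e-04). Spry4 was at 36.9, 39.2 and 42.7 CPM in control and at 38.8, 43.9 and 48.8 CPM in *Neuid* KD. The groups overlapped, and Spry4 was not called (log2 fold change 0.14, 95% interval from 0.0302 to 0.253, edgeR adjusted p = 0.164). Spry1 was at 18.9, 19.6 and 22.3 CPM in control and at 17.1, 18.2 and 19.6 CPM in *Neuid* KD. Here 5 of the 6 *Neuid* KD libraries were below the lowest control library, and replicate 1 was within the control range (log2 fold change -0.15, 95% interval from -0.255 to -0.0397, edgeR adjusted p = 0.126). Without that library, Spry1 was called lower (log2 fold change -0.21, edgeR adjusted p = 0.0255). Exons of Spry1 overlap Gm42922 on the opposite strand, whose mean was 0.445 CPM in control libraries and 0.641 CPM after *Neuid* KD.

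Within libraries, the Spry1 to Spry2 ratio differed by -0.44 and the Spry1 to Spry4 ratio by -0.27 on the log2 scale, both without overlap (exact permutation test, p = 0.002165 for each). The Spry2 to Spry4 ratio differed by 0.16, with overlap between the groups (exact permutation test, p = 0.0238). The 3 Sprouty genes thus differed from one another in their change, with Spry2 above Spry4 and Spry4 above Spry1.

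The Spred genes encode membrane-bound inhibitors that bring the Ras regulator neurofibromin to the membrane. Spred1 (ENSMUSG00000027351) lies on chr2:117121374-117182279, plus strand. It was at 75.9, 81.2 and 94.1 CPM in control and at 90.4, 108 and 116 CPM in *Neuid* KD. In 5 of the 6 *Neuid* KD libraries Spred1 was above the highest control library, and replicate 1, at 90.4 CPM, was below control replicate 3, at 94.1 CPM (log2 fold change 0.37, standard error 0.0661, edgeR adjusted p = 0.00108). Among the 7 libraries with high background Spred1 was between 75.9 and 83.7 CPM in control and between 90.4 and 116 CPM in *Neuid* KD, and among the other 5 it was between 84.8 and 94.1 CPM and between 106 and 113 CPM. Within each set the groups were therefore apart. Spred2 was at 66.2, 72.1 and 75.5 CPM in control and at 65.8, 77.8 and 81.9 CPM in *Neuid* KD, with overlap (log2 fold change 0.10, 95% interval from -0.0184 to 0.21, edgeR adjusted p = 0.443). The Spred1 to Spred2 ratio differed by 0.28 on the log2 scale without overlap (exact permutation test, p = 0.002165).

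Of the phosphatases, Dusp6, which acts on ERK in the cytoplasm, rose, and Dusp4, a nuclear phosphatase, was not called. Dusp6 (ENSMUSG00000019960) lies on chr10:99263231-99267489, plus strand. It was at 42.6, 43.7 and 44.9 CPM in control, the tightest range of the 10 genes (2.07% of the mean as the SD), and at 49.5, 54.8 and 60.7 CPM in *Neuid* KD. The groups did not overlap (log2 fold change 0.33, standard error 0.0496, edgeR adjusted p = 1.7e-04). Dusp4 was at 42.2, 47.2 and 54.2 CPM in control and at 39.0, 42.6 and 48.3 CPM in *Neuid* KD, with the highest value of each group in its replicate 6 (log2 fold change -0.14, 95% interval from -0.265 to -0.012, edgeR adjusted p = 0.257). Without *Neuid* KD replicate 6, Dusp4 was called lower (log2 fold change -0.21, edgeR adjusted p = 0.0407). The Dusp4 to Dusp6 ratio, above 0 in 4 of the 6 control libraries, was below 0 in every *Neuid* KD library, and differed by -0.47 (exact permutation test, p = 0.002165).

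**Figure D3:**
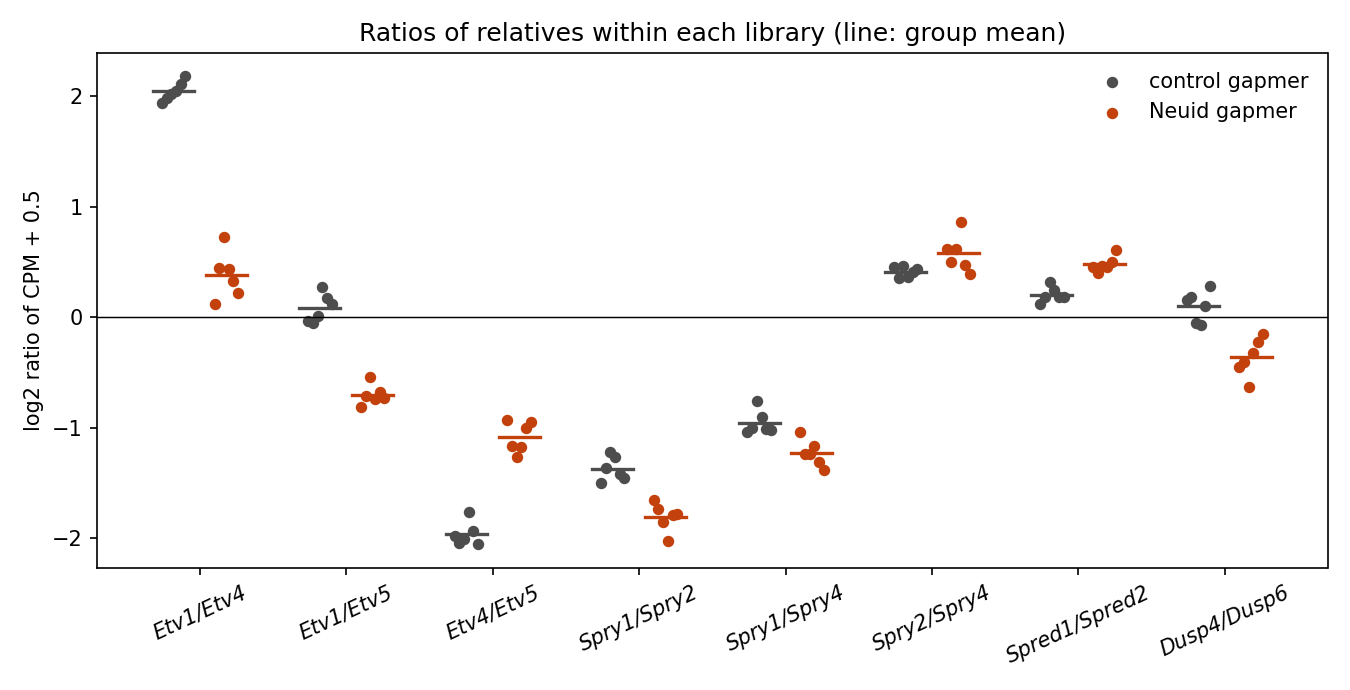
Log2 ratio of the CPM of 2 relatives (each + 0.5) in every control (grey) and *Neuid* KD (orange) library, with the group mean as a line. The groups are apart in 7 of the 8 ratios and overlap in Spry2 to Spry4. The largest shift is that of Etv1 to Etv4, from 2.05 to 0.38.

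These were 8 ratios in all. With Benjamini-Hochberg adjustment over the 8, the exact permutation p was 0.002474 for 7 of them and 0.0238 for Spry2 to Spry4. The differences have the sign of the fold changes above and come from the same libraries.

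Per kilobase of exon, Spry2 was the most abundant of the 10 genes in both groups, at 25.3 ± 1.76 RPKM in control and 31.2 ± 1.56 RPKM in *Neuid* KD (SD, n = 6 per group). Dusp4 followed in control at 17.2 ± 1.57 RPKM, then Spred2 at 15.4, Dusp6 at 13.95, Spred1 at 12.1, Etv5 at 8.99, Spry4 at 8.30, Spry1 at 6.92, Etv1 at 2.94 and Etv4 at 2.92 RPKM. The libraries of neighbours in this order overlapped for Dusp4 and Spred2, for Dusp6 and Spred1, for Etv5 and Spry4, and for Etv1 and Etv4. Compared within each control library, Dusp6 was above Spred1 in all 6. Dusp4 was above Spred2 in 5, Etv5 above Spry4 in 5, and Etv1 above Etv4 in 3. In *Neuid* KD, Dusp6 stood after Spry2, at 17.6 ± 1.22 RPKM, and the libraries of Dusp6, Spred2 (16.4), Spred1 (15.7) and Dusp4 (15.6) overlapped between neighbours. Etv4 stood at 7.26 ± 0.756 RPKM, its libraries overlapping with those of Spry4 (9.15) and Spry1 (6.28), and Etv1 was the lowest at 2.21 ± 0.16 RPKM. Within each *Neuid* KD library, Spry4 was above Etv4 in all 6, and Etv4 was above Spry1 in 5. Dusp6 was above Spred2 in 5, Spred2 above Spred1 in 5, and Spred1 above Dusp4 in 2. The length used for Etv1, 13296 bases of summed exons from 13 transcripts, is much longer than its longest transcript of 6576 bases, and with the latter its control level was 5.94 RPKM, still at position 9 of 10 but above Etv4, which was at 3.79 RPKM with its own longest transcript.

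**Figure D4:**
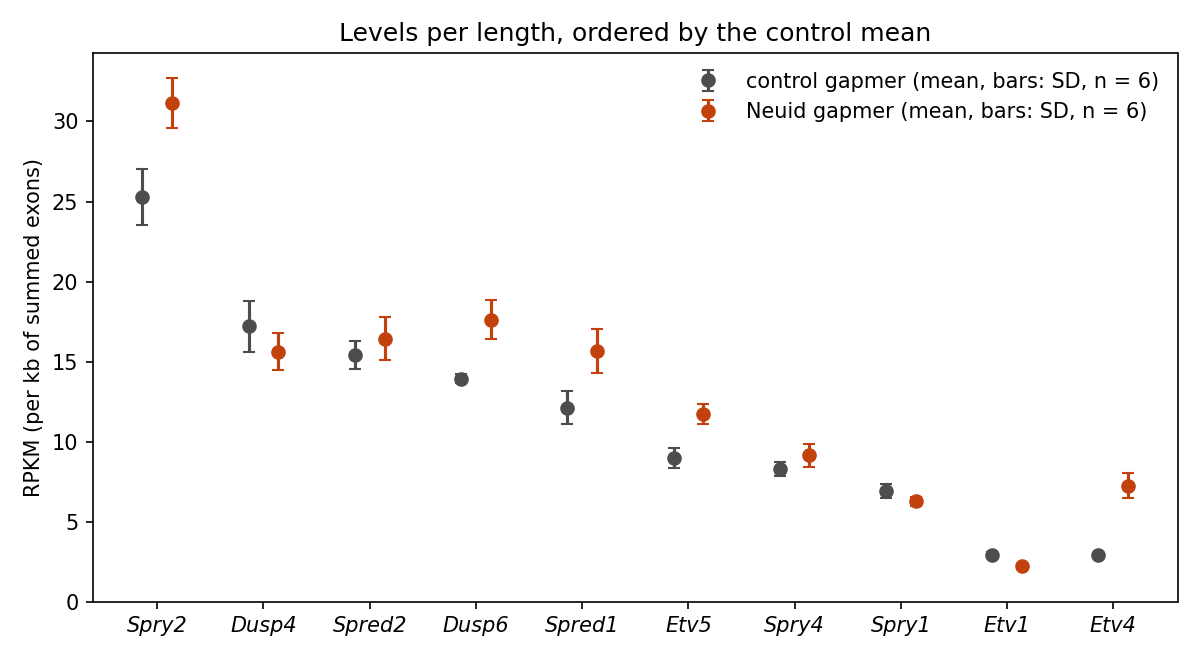
Mean RPKM of the 10 genes in control (grey) and *Neuid* KD (orange), with the SD over 6 libraries as bars, ordered by the control mean. Spry2 is highest in both groups, and Etv1 is drawn with its summed exon length, which places it at the level of Etv4 in control.

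The labels call the cultures neurons, and the 16 neuron markers summed to between 7844 and 9199 CPM in control and between 7676 and 9167 CPM in *Neuid* KD. Glial markers were present too, and moved with the group. The 18 astrocyte markers summed to between 2168 and 2721 CPM in control and between 4948 and 5527 CPM in *Neuid* KD, and 16 of the 17 tested were called higher. The 11 markers of oligodendrocyte precursors summed to between 551 and 719 CPM and between 1490 and 1755 CPM, with 6 of 11 called higher. The 5 not called were Pdgfra, Cspg4, Sox10, Gpr17 and C1ql1, with log2 fold changes from -0.77 (Gpr17) to 0.44 (Pdgfra). Ptprz1, which astrocytes also express, was the most abundant of these, between 358 and 497 CPM in control and between 954 and 1181 CPM in *Neuid* KD. Their part in the changes of the Etv, Spry, Spred and Dusp genes was not tested, and in bulk RNA more cells of a type and more RNA per cell cannot be told apart. Markers of mature oligodendrocytes (at most 39.0 CPM), microglia (at most 24.8 CPM), endothelial cells (at most 23.5 CPM) and mural cells or fibroblasts (at most 73.3 CPM) were low, and their sums overlapped between the groups, with the microglial C1qa and C1qc and the endothelial Cldn5 and Ly6c1 under 0.5 CPM in every library. Mbp, a myelin protein gene of mature oligodendrocytes, was the 1 of their 5 tested markers that was called, and it was lower in *Neuid* KD by edgeR (log2 fold change -0.66, adjusted p = 0.00097). No marker of the other 3 lists was called.

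The genes around the 10 in the pathway were read from 4 lists of 104 genes, of which 101 were tested. In total 20 were called higher and 6 lower, where 6.31% of all tested genes were called higher and 2.42% lower. The list of receptors, which holds receptor tyrosine kinases and Fgfrl1, a related receptor without a kinase domain, had 9 higher and 0 lower of 25 (median log2 fold change 0.26). The 3 with the largest rise and no overlap were Mertk, a receptor of phagocytic cells that astrocytes also use, with a log2 fold change of 1.76, Egfr, the receptor for epidermal growth factor, with 1.43, and Fgfr3, a fibroblast growth factor receptor of astrocytes, with 1.32. Egfr was between 48.4 and 57.2 CPM in control and between 131 and 150.2 CPM in *Neuid* KD. Fgfr3 is also one of the astrocyte markers above, and Csf1r, Pdgfra and Pdgfrb of this list are markers of other cell types.

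In the cascade between receptor and ERK, 2 of 32 genes were called higher and 3 lower (median log2 fold change -0.00161). Gab1, an adaptor of growth factor receptors, rose with a log2 fold change of 0.50. Rasgrf2, a calcium-regulated activator of Ras in neurons, the kinase Rps6ka2 and Mapk3, which encodes ERK1, fell with log2 fold changes of -0.32, -0.25 and -0.18. The kinase Map2k2, named after its value was seen since it overlapped between groups, was the other called higher (0.20).

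Of 22 other feedback inhibitors and targets, 4 were called higher and 2 lower (median log2 fold change -0.0435). Il17rd, which encodes the fibroblast growth factor inhibitor Sef, had the largest rise, from between 11.6 and 14.7 CPM to between 30.2 and 43.1 CPM (log2 fold change 1.49, standard error 0.0779, edgeR adjusted p = 4.7e-10). Lrig1, an inhibitor of epidermal growth factor receptors, rose with a log2 fold change of 0.70, and Egr1, an immediate early transcription factor, with 0.48. Ier3, an early response gene, fell from between 2.17 and 3.20 CPM to between 0.68 and 1.18 CPM (log2 fold change -1.49). Egr3 was called higher (0.28) and Maff lower (-0.92), both with overlap and both named after their values were seen. The other early genes of this list, Fos, Fosl1, Fosl2, Junb, Egr2 and Myc, were not called, with log2 fold changes from -0.47 (Fosl1) to 0.00436 (Junb).

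Among relatives of the 10 genes, 5 of 22 tested were called higher and 1 lower (median log2 fold change 0.0465). Fli1 and Dusp9 had too few reads, and no gene in the count table was found under the symbol Spry3. The ETS factors Elf1, Elk3 and Etv6 rose with log2 fold changes of 0.73, 0.42 and 0.30. Gabpa (0.24) and Erf (0.21), 2 more ETS factors, were also called higher and Dusp10 lower (-0.70), and these 3 are named after their values were seen. Spred3, the third Spred gene, was between 34.8 and 45.8 CPM in control and between 33.3 and 40.5 CPM in *Neuid* KD and was not called.

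**Figure D5:**
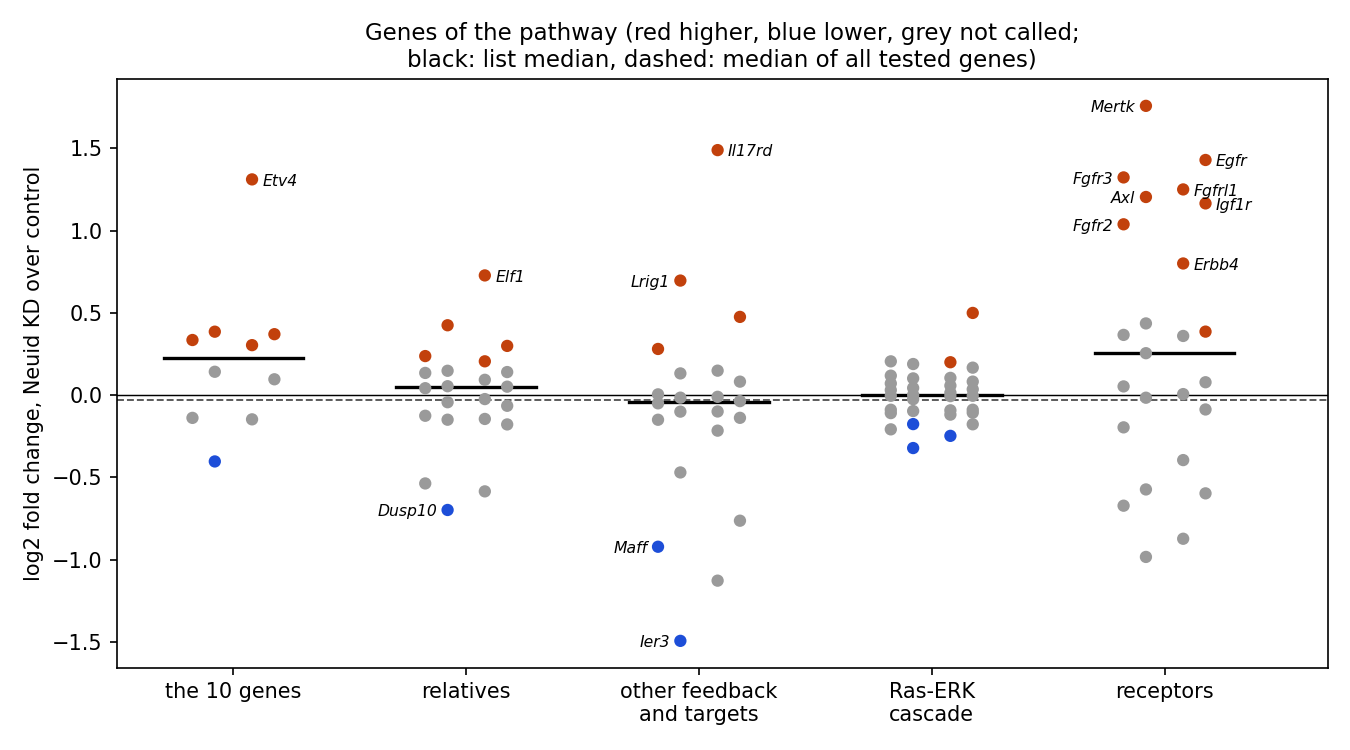
Log2 fold change of the 10 genes and of the tested genes of the 4 pathway lists, in red where called higher, in blue where called lower and in grey where not called, with the list median (black) and the median of all tested genes (dashed). Among the receptors 8 calls lie above 0.5, and most genes of the Ras-ERK cascade lie close to 0.

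The genes whose profile over the 12 libraries was most like that of Etv4 were found by the root mean square difference of centred log2 CPM, over the 8927 genes that averaged 10 CPM or more. They were Fgfrl1, a fibroblast growth factor receptor without a kinase domain (difference 0.116), Spon1 (0.127) and Cdh4 (0.128), with log2 fold changes of 1.25, 1.24 and 1.22. For Etv5 they were the integrin Itga6 (0.0652), Dennd5a (0.0709) and the transaminase Gpt2 (0.0723), with log2 fold changes of 0.38, 0.33 and 0.38. These likenesses describe 12 libraries in 2 groups and mainly carry the group difference.

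For the 6 called genes, the groups were also apart within the 7 libraries with a background of at least 100 CPM and within the 5 under it. Spry1, Spry4, Spred2 and Dusp4, which were not called, overlapped within the 7 libraries. Within the 5 (2 control, 3 *Neuid* KD) they were apart too, so being apart there did not set the called genes off. The share of all tested genes apart within each set is not given here. The log2 fold changes in these sets were 1.45 and 1.13 for Etv4, 0.41 and 0.32 for Etv5, 0.26 and 0.34 for Spry2, 0.40 and 0.26 for Spred1, 0.29 and 0.35 for Dusp6, and -0.41 and -0.45 for Etv1. In the 7 libraries Spry2 and Dusp6 were no longer called (edgeR adjusted p = 0.186 and 0.0854). With offsets for GC content and length in the fit, Etv4 alone was called, and the other 5 kept their direction with edgeR adjusted p from 0.219 (Etv1) to 0.715 (Spry2). The log2 fold changes of these 5 were then between -0.40 (Etv1) and 0.42 (Etv5 and Dusp6), with standard errors from 0.137 to 0.201 where those without the offsets were from 0.0496 to 0.0661.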

How the data were processed

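RNA-seq data were 12 libraries, 6 per group, with a stranded total RNA kit. The authors aligned the reads to the mouse genome (GRCm38, mm10) and deposited raw read counts per gene, whole numbers without normalization. The submitters' processing notes name bcl2fastq and STAR. Whether counting used strand is not given in the sources used here. Every library row of the table belonged to a sample. Symbols and positions came from GENCODE, and promoters from RefSeq.

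Counts were filtered with filterByExpr, scaled with TMM and tested with glmQLFit and glmQLFTest (edgeR 4.0.16 in R 4.3.3, limma 3.58.1), with group as the only term and Benjamini-Hochberg adjustment over all 19578 tested genes. The methods of the study name DESeq2 with factors of unwanted variation. Each was run separately as an alternative, DESeq2 1.42.0 with group alone and edgeR with 1 such factor. They were not combined as in the study. CPM values are TMM-scaled counts, and RPKM divides them by the summed exon length. The standard error is the absolute log2 fold change divided by the square root of the F statistic of the edgeR test. Intervals are 95% normal intervals from it, somewhat narrower than that test implies. They are not adjusted for the number of genes, so an interval can leave out 0 where a gene was not called. Ratios of relatives were log2(CPM + 0.5) differences tested by exact permutation. The scripts were tested on simulated data.

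The 10 genes and all lists were chosen with earlier results of these data known. Besides the 10 genes and *Neuid*, the text names, from each of the 4 pathway lists, up to 3 genes that rose most and up to 3 that fell most among those called without overlap, and the 3 nearest profiles of Etv5 and of Etv4. Marker genes and genes named for a count of 5 or fewer are exceptions and are named as such or by their list. The alternatives were other scalings, filters and tests, the replicate number as a block, the background level as a covariate or as 2 sets of libraries, GC and length offsets, thinning to the smallest library and leaving out each library. Deviations from the group means of same-numbered libraries correlated from -0.637 to 0.774, over 0.1 in 2 of the 6 pairs. Those 2 pairs were alike in background (replicate 1 at 667 and 616 CPM, replicate 3 at 26.7 and 27.1 CPM). The pair with the lowest correlation was not (replicate 4 at 592 and 50.5 CPM). The correlations can carry the background, so they cannot decide whether libraries with the same number shared a culture.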

Additional observations from a re-analysis of the deposited data

Results flagged for a closer look

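In 22 groups of 6 libraries (the 10 genes and *Neuid* in each group), 1 value stood apart from the other 5. Etv1 was at 25.3 CPM in *Neuid* KD replicate 1, against 29.3 to 31.4 CPM in the other *Neuid* KD libraries, and the gap to the nearest of them was 0.646 of the whole range. Chance alone flags about 1 in 20 such groups. That library had the fewest reads, 11152556, and 616 CPM on chemosensory receptor genes, and the part of either in its Etv1 value was not tested. Without it the fall of Etv1 was still called (log2 fold change -0.41, edgeR adjusted p = 2.2e-05).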

How the results depend on the processing

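No fold change or ratio of the 10 genes changed direction under the alternatives run for it (25 for fold changes, 13 for ratios), and Etv4 was called higher under each (log2 fold change from 1.13 to 1.45), as *Neuid* was called lower (-1.93 to -1.74). The number of the 10 genes called higher was 5, but 3 within the 7 libraries of high background and 1 with GC and length offsets (5 with each library left out in turn). With those offsets the median variation between libraries in genes of at least 10 CPM was 0.203 instead of 0.0712, and 0.0539 when the trend was fitted on those genes alone, an alternative chosen after seeing the data, with 5 higher and 2 lower. The number called lower was 1, but 2 with upper-quartile scaling or DESeq2, where Spry1 joined Etv1, 0 with the offsets, and from 1 to 2 with each library left out (2 without *Neuid* KD replicate 1 or 6). Of the other pathway genes, 20 were called higher, 11 with the offsets and from 16 to 23 with each library left out. The number called lower was 6, but 16 with upper-quartile scaling, 12 with DESeq2 or the background as a covariate, 13 with a factor of unwanted variation, 11 with a minimum of 1 CPM, 10 after thinning, 19 with offsets fitted on genes of at least 10 CPM, 2 without a filter or at high background, 1 with the offsets, and from 4 to 11 with each library left out (11 without *Neuid* KD replicate 1). The cause was not tested. Over all genes 1235 were called higher and 473 lower, against 1049 and 1259 with upper-quartile scaling, 1487 and 1000 with DESeq2, 1134 and 1452 with the added offsets and 1110 and 799 within the libraries of low background, and between 393 and 1776 and between 93 and 1452 over all alternatives. With the replicate number as a block the 10 genes gave the same 5 higher and 1 lower (Etv5 log2 fold change 0.39, adjusted p = 0.00082, Etv1 -0.41). 2 of the 6 controls matched their own number best. At 185 to 3223 reads per gene and library, the standard errors of the 10 log2 fold changes were between 0.0496 and 0.0721.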
